A study of Homo sapiens with 6 samples.

Results

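The inositol polyphosphate 5-phosphatase family was examined in HEK293 cells, an established human line derived from embryonic kidney, after inhibition of phosphatidylinositol 4-kinase alpha (PI4KA). The 10 genes were INPP5D, INPPL1, OCRL, INPP5A, INPP5B, INPP5E, INPP5F, INPP5K, SYNJ1 and SYNJ2, found by symbol among the 63140 genes of the deposited count table. Each symbol matched 1 row, and all 10 passed the filter on low counts, INPP5D with its smallest library at 24 counts. The family was chosen on the fall of INPP5D between the same groups, so the values of INPP5D are described here without a test. The other 9 genes were listed by name and enzyme family, with earlier results of these data already known.

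Control cells received dimethyl sulfoxide (DMSO), the usual solvent, and treated cells GSK-A1, a small-molecule inhibitor of PI4KA, with 3 libraries in each group. The labels give 100 nM GSK-A1 for 24 h on a confluent layer, in a text that all 6 samples carry, so the time in DMSO is not stated apart. All libraries came from 1 cell line with no genetic change named and carry the same lane label. The replicates are called biological, without word on whether the cultures were grown apart. P-values therefore measure the spread between these libraries.

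Inositol 5-phosphatases remove the phosphate at position 5 of the inositol ring, either from membrane phosphoinositides or from soluble inositol phosphates. SHIP1, the product of INPP5D, and SHIP2, the product of INPPL1, act on PIP3, the lipid made by PI3-kinases, and SHIP1 is best known from blood cells. Most of the other members act on PIP2 at the plasma membrane, on endosomes, at the Golgi or in the cilium, and PIP2 is itself built from the PI4P that PI4KA makes. INPP5F carries the family name but is a Sac-domain enzyme that acts on PI4P.

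Libraries held 33040178 to 47777233 counts. HEK293 markers were mixed, with NEFL at 713.5 to 794.4 CPM (counts in each 1000000 of the library's scaled total) and VIM and CDH2 also well detected, and with NEFM and INA nearly absent at means of 0.14 and 0.0070 CPM with DMSO. Of the 4 tested, VIM was called higher with GSK-A1 (log2 fold change 0.17, edgeR adjusted p = 0.00423) and PAX2 lower (-0.43, edgeR adjusted p = 0.0177). The PAX2 call was lost without DMSO replicate 1 or 3 or GSK-A1 replicate 1 (edgeR adjusted p of 0.0554 to 0.0616) and with DESeq2 (adjusted p = 0.111). GSK-A1 replicate 2 stood apart from the other 2 GSK-A1 libraries in several members, and its values are given beside the results they touch.

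Levels were first set side by side as CPM per kilobase of the longest annotated transcript, so that genes of different length could be compared. With DMSO, INPPL1 was the most abundant at 49.6 ± 0.7 CPM per kilobase (SD, n = 3). INPP5E, the 5-phosphatase of the primary cilium, followed at 26.7 ± 0.8, and OCRL, the enzyme lost in Lowe syndrome, at 25.3 ± 0.4. INPP5K stood at 12.96 ± 0.41, INPP5A at 8.37 ± 0.04, INPP5F at 7.97 ± 0.15, SYNJ2 at 6.83 ± 0.11, INPP5B at 5.80 ± 0.24 and SYNJ1 at 4.51 ± 0.15 CPM per kilobase. INPP5D was last at 0.45 CPM per kilobase, 10.0 times below SYNJ1, the next in order. No 2 neighbours in this order overlapped between their 3 DMSO libraries, although INPP5E exceeded OCRL, and INPP5A exceeded INPP5F, by a ratio of only 1.05. With GSK-A1 the means were 45.8 for INPPL1, 25.15 for INPP5E, 24.6 for OCRL, 14.2 for INPP5K, 9.11 for INPP5F, 9.05 for INPP5A, 6.62 for SYNJ2, 5.95 for INPP5B, 4.73 for SYNJ1 and 0.15 for INPP5D. The libraries of INPP5E and OCRL now overlapped, as did those of INPP5A and INPP5F. The means of INPP5A and INPP5F changed places, with a ratio of INPP5A to INPP5F of 0.994. The other neighbours kept apart, INPP5D lying 31.8 times below SYNJ1. Lack of overlap covers the spread between libraries and not the choice of gene length. Over the union of all exons, OCRL (130.6 CPM with DMSO, 6064 bases) would stand above INPP5E (115 CPM, 6490 bases). SYNJ1 (31.97 CPM with DMSO, 8070 bases) would likewise stand above INPP5B (27.23 CPM, 8930 bases). INPP5A (26.86 CPM with GSK-A1, 3706 bases) would stay above INPP5F (48.44 CPM, 7610 bases), so their change of places depends on the gene length used.

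**Figure D1:**
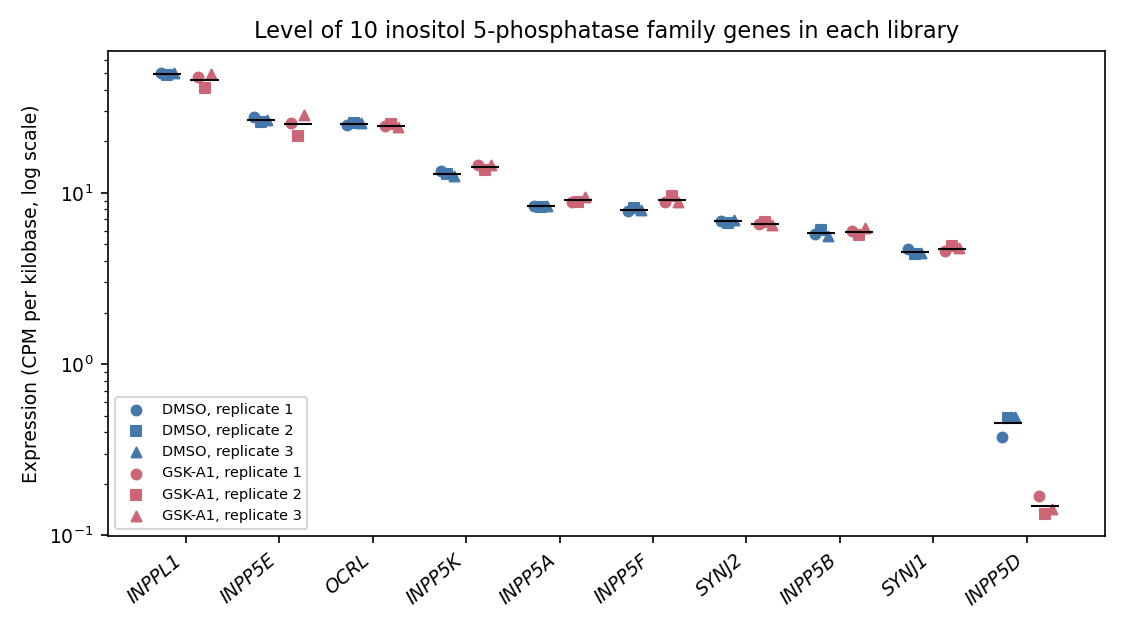
Expression of the 10 family genes in each library, in CPM per kilobase of the longest annotated transcript on a log axis, ordered by the DMSO mean. Symbols are single libraries and bars are group means. INPP5D lies at 0.13 to 0.49 CPM per kilobase, below every library of the other 9 genes.

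INPPL1 alone made up 33.4% of the family's summed level per length with DMSO and 31.5% with GSK-A1. INPP5D made up 0.30% and 0.10%. INPP5E made up 17.96% and 17.2%, and OCRL 17.0% in both groups, so these 3 genes held most of the family's level with and without the inhibitor. The sum over the 9 members other than INPP5D was 148.03 ± 1.46 CPM per kilobase with DMSO and 145.27 ± 7.76 with GSK-A1 (exact two-sided permutation p = 0.8, where 3 against 3 libraries allow no p below 0.1). The difference of -2.77 turned to 1.47 without GSK-A1 replicate 2 and was -6.89 under upper-quartile factors.

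INPP5D (ENSG00000168918) had 95, 116 and 86 counts in DMSO replicates 1 to 3 and 42, 24 and 27 counts in GSK-A1 replicates 1 to 3. In CPM these were 1.98, 2.55 and 2.60 with DMSO and 0.90, 0.70 and 0.75 with GSK-A1. The lowest DMSO library was more than double the highest GSK-A1 library, and the groups did not overlap. Its mean was 2.38 ± 0.34 CPM (SD, n = 3) in the controls and 0.78 ± 0.10 in the treated cells, which is 0.34 of the control level or -1.56 ± 0.18 (SE) on the log2 scale. This fall was the ground for choosing the family and is given as a description.

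Few reads stood behind INPP5D. In CPM, DMSO replicate 1 and GSK-A1 replicate 1 lay nearest between the groups. Exact Poisson 95% intervals, which cover counting error only, ran from 76.9 to 116 for the 95 counts of the first (1.6 to 2.42 CPM). For the 42 counts of the second they ran from 30.3 to 56.8 (0.649 to 1.22 CPM). The coefficient of variation between libraries was 14.4% with DMSO and 13.2% with GSK-A1, against 10.05% and 17.96% from counting alone at those depths. The spread of INPP5D between libraries of a group was thus close to its counting error. In whole cultures, fewer cells with the mRNA and less mRNA per cell cannot be told apart.

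Because SHIP1 is best known from blood cells, 14 blood-cell markers were read in the same libraries. None reached a mean of 1 CPM. Of the 14, CD79A and CD14 passed the count filter, and edgeR called 0 of them (0 also at an unadjusted p under 0.05). PTPRC, which encodes the pan-leukocyte protein CD45, lay between 0 and 0.088 CPM, and CD48 had no count in any library. The markers summed to 1.36 to 1.80 CPM with DMSO and to 1.11 to 1.82 CPM with GSK-A1, ranges that overlapped while those of INPP5D did not. SPI1, which encodes the blood-lineage factor PU.1, stood at 0.060 to 0.083 CPM with DMSO and at 0.021 to 0.059 CPM with GSK-A1, which rests on 1 to 4 reads per library. Beyond these values the part of blood-cell RNA in the INPP5D result was not tested.

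INPP5D lies on chromosome 2 at 233059967 to 233207903 on the plus strand of GRCh38 in GENCODE release 29, the build named in the submitters' processing notes being GRCh38.p13. INPPL1 (ENSG00000165458), its closest paralog, lies on chromosome 11 at 72223701 to 72239105, also on the plus strand. No stretch of 50 bases in the longest transcript of either occurred in another gene's transcripts, so these transcripts could be told apart at that length. They hold 5274 of the 8681 exonic bases of INPP5D and 4733 of the 6519 of INPPL1, and the rest was not searched. In release 29 no exon of another gene overlapped those of INPP5D, and PHOX2A, on the other strand, shared 0.45% of the exonic bases of INPPL1.

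The sequences before the annotated starts of the 2 paralogs are shown to set INPP5D, whose level differed most between the groups, beside the most abundant member. They are from the RefSeq promoter table for GRCh38.p14, which held an entry for 9 of the 10 members and none for INPP5A. The INPP5D stretch of 30 bases, chr2:233060268-233060297, plus strand, has in capitals GAGGAAGT, a PU.1-type ETS motif that ends 55 bases before the RefSeq start. This stretch lies inside the GENCODE span of the gene, which starts at 233059967. The INPPL1 window holds the 250 bases before its most upstream RefSeq start, chr11:72223313-72223562, plus strand. Its capitals mark CCGCCC on either strand, the GC box bound by Sp and KLF factors.
INPP5D: gtttctgtaatGAGGAAGTtctccgcagct
INPPL1: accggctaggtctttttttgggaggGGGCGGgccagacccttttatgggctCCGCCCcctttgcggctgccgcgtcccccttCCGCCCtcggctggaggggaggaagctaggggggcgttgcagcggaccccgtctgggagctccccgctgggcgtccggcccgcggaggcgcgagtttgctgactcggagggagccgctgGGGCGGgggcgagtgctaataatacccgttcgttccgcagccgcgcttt

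The motifs were picked after the INPP5D sequence had been seen, and a match is a description only. Both strands were searched in the 250 bases before each of the 35116 starts of the table. GAGGAAGT occurred in 2.17% of all windows and, among the 18 windows of the members, in that of INPP5D only. CCGCCC occurred in 42.6% of all windows, with 4 matches in the INPPL1 window shown and 6 and 2 in its other windows. Windows of INPP5B, INPP5F and SYNJ1 held 0 to 5 each. There were 2 matches for INPP5E, 1 for INPP5K and 0 for INPP5D, OCRL and SYNJ2. The INPP5D window held 9 CpG dinucleotides and the INPPL1 window 27, against a median of 11 over all windows. The other motifs searched were CCGGAAGT for ETS factors (3.42% of windows), GCGGGGGCG for EGR factors (4.72%) and TATAAA, the TATA box (10.7%). Among the members these 3 gave 1 match to GCGGGGGCG in OCRL and 1 in each of 2 windows of INPPL1, and none elsewhere.

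INPPL1 encodes SHIP2, the broadly expressed counterpart of SHIP1. Its mRNA stood at 238, 231 and 236 CPM with DMSO and at 224, 193 and 233 CPM with GSK-A1. The groups overlapped only through GSK-A1 replicate 3, and GSK-A1 replicate 2 was the lowest library. Its log2 fold change was -0.12 ± 0.06 (SE) and did not pass the test (edgeR adjusted p = 0.158). Leaving out GSK-A1 replicate 3 made it a call (-0.16, edgeR adjusted p = 0.0288), and the value moved to -0.04 without GSK-A1 replicate 2 (edgeR adjusted p = 0.381). The log2 ratio of INPP5D to INPPL1, per length and within a library, was -7.06, -6.66 and -6.66 with DMSO and -8.12, -8.26 and -8.44 with GSK-A1, and the group means lay -1.48 apart, a value that does not depend on how libraries are scaled.

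**Figure D2:**
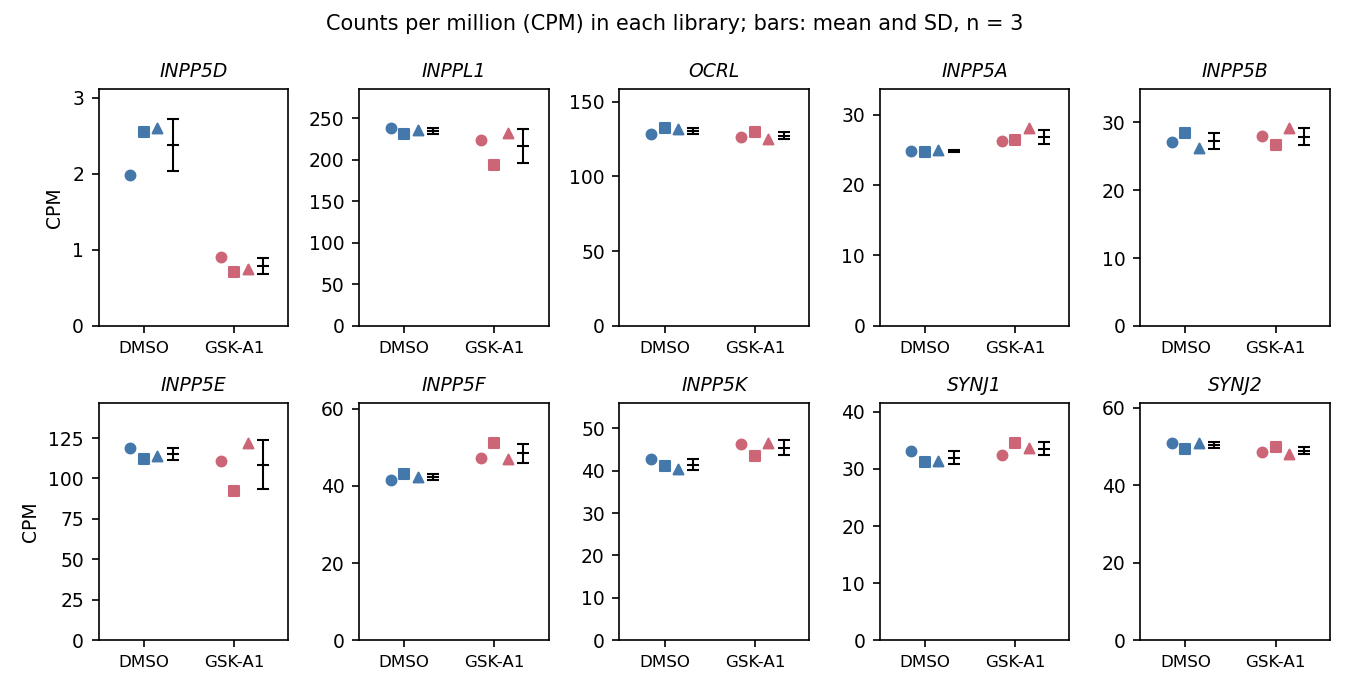
CPM of each family gene in every library, on axes that start at 0 and differ between genes. Circles, squares and triangles are replicates 1, 2 and 3, and bars give the mean and SD (n = 3). INPP5D, INPP5A, INPP5F and INPP5K have no overlap between groups, and GSK-A1 replicate 2 is the lowest library for INPPL1 and INPP5E.

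Over all genes, 22.9% of the 16754 tested were called at an edgeR adjusted p under 0.05, 12.0% higher and 10.9% lower with GSK-A1. Of the 9 members other than INPP5D, edgeR called 1 higher and 0 lower, and 8 were not called (0 lower also at an unadjusted p under 0.05, where 3 were higher). DESeq2 and limma-voom likewise called 1. Their median log2 fold change was 0.034, against -0.011 over all genes tested. The groups did not overlap in 3 of the 9, against 40.5% of all genes tested. The count of calls among the members was thus not above the background.

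INPP5F, the gene called higher, encodes the PI4P phosphatase also known as Sac2, which works on endosomes. It stood at 41.6, 43.2 and 42.3 CPM with DMSO and at 47.2, 51.2 and 46.9 CPM with GSK-A1. All 3 GSK-A1 libraries lay above all 3 DMSO libraries. The log2 fold change was 0.19 ± 0.05 (SE), a rise of 14.2% with an edgeR adjusted p of 0.00815. The call was lost only in the fit without DMSO replicate 1 (0.18, edgeR adjusted p = 0.0543) among the 15 other settings tried. INPP5F (ENSG00000198825) lies on chromosome 10 at 119726042 to 119829278, and a processed pseudogene of the same strand shares 3.52% of its exonic bases.

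INPP5K (ENSG00000132376, chromosome 17, 1494571 to 1516888), also called SKIP, encodes an enzyme of the endoplasmic reticulum linked to insulin signalling. Its values were 42.9, 41.1 and 40.3 CPM with DMSO and 46.3, 43.4 and 46.6 CPM with GSK-A1. The groups did not overlap, and its log2 fold change, 0.13 ± 0.05 (SE), lay just outside the threshold (edgeR adjusted p = 0.0504). Leaving out GSK-A1 replicate 2 made it a call (edgeR adjusted p = 0.00108), as did the library factors of DESeq2 (RLE, edgeR adjusted p = 0.0423) and removing each library's trend on the GC content of transcripts (edgeR adjusted p = 0.00208). In all, 5 of 15 other settings called it.

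INPP5A (ENSG00000068383, chromosome 10, 132537820 to 132783480) encodes the enzyme that ends the calcium signal by cutting IP3. Its libraries read 24.8, 24.7 and 24.96 CPM with DMSO and 26.2, 26.4 and 28.0 CPM with GSK-A1. All GSK-A1 libraries were again higher, by a log2 fold change of 0.11 ± 0.05 (SE) that did not pass the test (edgeR adjusted p = 0.121). It passed without GSK-A1 replicate 2 (edgeR adjusted p = 0.0463) and once that trend on GC content was taken out (edgeR adjusted p = 0.0350). NKX6-2, on the other strand, shares 8.15% of its exonic bases, and the strand setting of the counting is not given in the sources used here.

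OCRL (ENSG00000122126, chromosome X, 129539849 to 129592561) and INPP5B (ENSG00000204084, chromosome 1, 37860697 to 37947057) are paralogs that act on PIP2 at endosomes, the Golgi and clathrin-coated structures. OCRL stood at 128, 132 and 132 CPM with DMSO and at 126, 130 and 125 CPM with GSK-A1, a log2 change of -0.04 ± 0.04 (SE, edgeR adjusted p = 0.481). INPP5B stood at 27.1, 28.4 and 26.2 CPM with DMSO and at 28.0, 26.6 and 29.1 CPM with GSK-A1. Its log2 fold change of 0.03 ± 0.05 (edgeR adjusted p = 0.689) turned to -0.0061 under upper-quartile factors. The libraries of the groups overlapped for both genes. The log2 ratio of OCRL to INPP5B per length was 2.13 ± 0.06 (SD, n = 3) in the controls and 2.05 ± 0.09 in the treated cells, and its difference of -0.07 did not pass (exact two-sided permutation p = 0.3).

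SYNJ1 (ENSG00000159082, chromosome 21, 32628759 to 32728048) and SYNJ2 (ENSG00000078269, chromosome 6, 157981887 to 158099176) encode the synaptojanins, which carry a Sac domain beside the 5-phosphatase domain and help strip clathrin from newly formed vesicles. SYNJ1 read 33.2, 31.3 and 31.4 CPM with DMSO and 32.4, 34.6 and 33.7 CPM with GSK-A1 (log2 fold change 0.07 ± 0.05, edgeR adjusted p = 0.348). SYNJ2 read 50.8, 49.4 and 50.9 CPM with DMSO and 48.6, 49.9 and 48.1 CPM with GSK-A1 (-0.04 ± 0.04, edgeR adjusted p = 0.484). Neither passed the test, and in both the libraries of the groups overlapped. The log2 ratio of SYNJ1 to SYNJ2 per length was -0.56, -0.60 and -0.64 with DMSO and -0.53, -0.47 and -0.46 with GSK-A1, so that every GSK-A1 library lay above every DMSO library. The difference of 0.12 had the smallest p this design allows (exact two-sided permutation p = 0.1) and so could not pass 0.05. With 1 library left out it ranged from 0.095 to 0.138.

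INPP5E (ENSG00000148384, chromosome 9, 136428619 to 136439823) encodes the 5-phosphatase that keeps PIP2 low in the primary cilium. Its values were 119, 112 and 114 CPM with DMSO and 111, 92.1 and 122 CPM with GSK-A1. The GSK-A1 libraries enclosed all the DMSO libraries, with replicate 2 far below and replicate 3 above. On the log2 scale its change was -0.08 ± 0.10 (SE, edgeR adjusted p = 0.580) and turned to 0.02 without GSK-A1 replicate 2. The coefficient of variation was 3.16% with DMSO and 13.97% with GSK-A1, against 1.54% expected from counting at the depth of the latter. INPP5J, a 5-phosphatase outside the 10 genes, was also lowest in GSK-A1 replicate 2, with 21.6, 19.96 and 21.2 CPM for DMSO and 19.8, 14.6 and 21.1 CPM for GSK-A1 (log2 fold change -0.17 ± 0.12, edgeR adjusted p = 0.336).

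The members differed in how far GSK-A1 replicate 2 stood from GSK-A1 replicates 1 and 3. INPP5E lay 21.0% below their mean, INPPL1 15.4% below and INPP5J 28.7% below. These 3 had the highest GC content in their longest transcripts, at 61.4%, 61.5% and 62.2%. INPP5F lay 8.79% above the mean of the other 2 libraries and SYNJ1 4.63% above, with GC contents of 44.0% and 41.9%, the lowest of the family. The log2 fold change of INPPL1 moved from -0.12 to -0.05 and that of INPP5E from -0.08 to -0.02 with the GC trend removed, while that of INPP5F moved from 0.19 to 0.17 and kept its call. Beyond these values the part of GC content in the results was not tested. INPP5D lay 14.8% below the other 2 libraries at a GC content of 56.5%, on 24 counts, and its log2 fold change was -1.52 with the trend removed and -1.48 without GSK-A1 replicate 2.

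**Figure D3:**
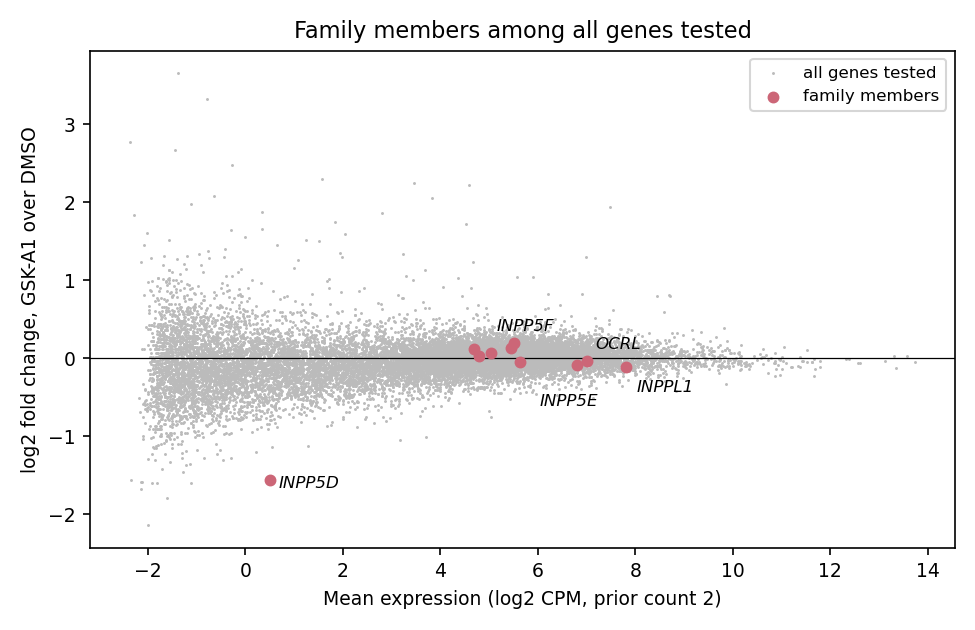
Each tested gene by its mean log2 CPM (prior count 2, x axis) and its log2 fold change, GSK-A1 over DMSO (y axis). Grey points are the 16754 genes tested and red points the 10 family genes. INPP5D lies at -1.56, and the other 9 lie between -0.12 and 0.19.

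The genes whose pattern over the 6 libraries was most like that of INPP5D were found by the root mean square distance between centred log2 CPM values, among the 12815 named genes with a mean at or above 1 CPM. The nearest was FREM1, a basement membrane protein gene, at a distance of 0.27. MAP2K6, the p38 kinase kinase, lay at 0.27, COL17A1, a collagen of hemidesmosomes, at 0.28, and ACTA2, smooth muscle actin, and TMEM37 each at 0.29. No other member was among them, which follows from their log2 fold changes of -0.12 to 0.19 against -1.56 for INPP5D. FREM1 read 1.36, 1.91 and 1.84 CPM with DMSO and 0.64, 0.73 and 0.83 CPM with GSK-A1, and it passed the limit of 1 CPM through its DMSO libraries, as INPP5D and COL17A1 did. These genes were picked for this likeness, so their shared pattern is a description.

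**Figure D4:**
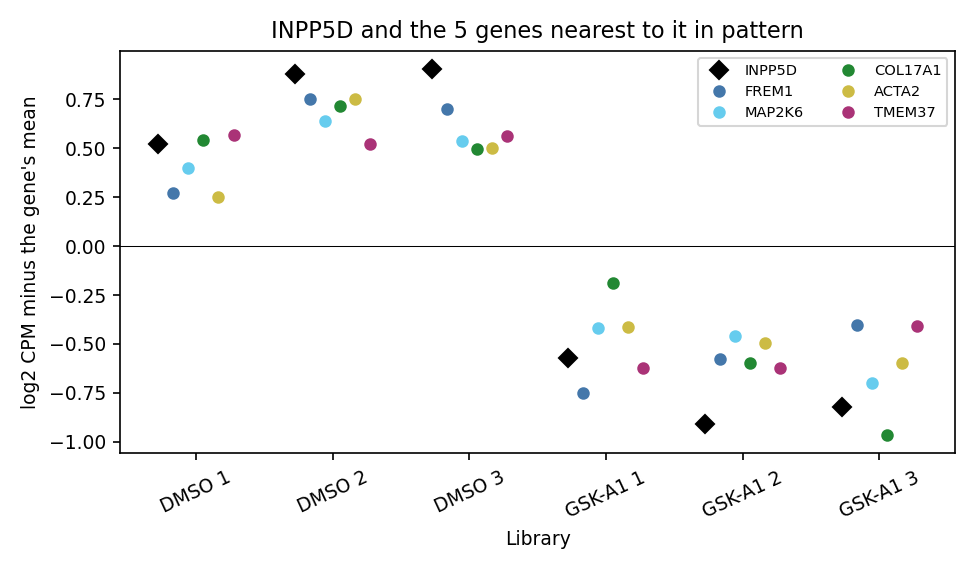
Log2 CPM of INPP5D (black diamonds) and its 5 nearest genes (coloured circles) in each library, after subtraction of each gene's mean over the 6 libraries. All 6 genes lie above 0 in the 3 DMSO libraries and below 0 in the 3 GSK-A1 libraries.

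Other enzymes of phosphoinositide turnover were then read from lists. The list of phosphoinositide 3-phosphatases, which include the myotubularins, had 11 members. Of the 9 tested, 0 were called by edgeR, DESeq2 or limma-voom, 0 had an unadjusted p under 0.05, and their log2 fold changes ran from -0.04 to 0.14. Of the 6 genes for 4-phosphatases and other Sac-domain enzymes, 0 were called by the same 3 tools. FIG4, the Sac enzyme of the endosomal PIKfyve complex, alone had an unadjusted p under 0.05 (-0.11 ± 0.04, edgeR adjusted p = 0.0719) and is named after its value was seen. The list had 1 call without GSK-A1 replicate 2, under upper-quartile factors, with genes limited to a mean of 1 CPM or more, and with the GC trend removed.

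Enzymes that interconvert soluble inositol phosphates held 8 calls. Of the 17 tested, 6 were called higher and 2 lower, against 22.9% called over all genes, and the median was 0.073 on the log2 scale. IMPA1, an inositol monophosphatase that returns free inositol, rose from 45.8 ± 1.9 to 53.95 ± 3.84 CPM (log2 fold change 0.23 ± 0.05, SE; edgeR adjusted p = 0.00499). INPP1, which removes the phosphate at position 1, rose from 10.6 ± 0.5 to 12.8 ± 0.1 CPM (0.26 ± 0.07, edgeR adjusted p = 0.00950), and HIBCH, on the other strand, shares 5.50% of its exonic bases. IPMK, a multikinase on the route to the higher inositol phosphates, rose from 15.3 ± 0.3 to 18.3 ± 1.7 CPM (0.25 ± 0.07, edgeR adjusted p = 0.0151). The genes called lower, named after their values were seen, were IMPA2, a second inositol monophosphatase (-0.19 ± 0.06, edgeR adjusted p = 0.0376), and ITPK1, a kinase of inositol phosphates (-0.14 ± 0.04, edgeR adjusted p = 0.0317). The INPP1 call was lost without DMSO replicate 3 (edgeR adjusted p = 0.0578). That of IPMK was lost without any 1 of the DMSO libraries and once the trend on GC content was taken out (0.15, edgeR adjusted p = 0.0564). With that trend removed IMPA1 moved from 0.23 to 0.15 (edgeR adjusted p = 0.0140) and INPP1 from 0.26 to 0.28 (edgeR adjusted p = 0.00318), and both kept their calls. The 8 calls of this list became 3, 2 and 1 without DMSO replicates 1, 2 and 3, 4 without GSK-A1 replicate 1 and 4 with DESeq2. Calls over all genes fell too, from 3835 to 2163, 2213, 2206, 2674 and 2975 in the same order.

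Genes for binding partners were read beside each enzyme group. Of 10 tested partners of SHIP1 and SHIP2, 5 were called higher and 1 lower, against 12.0% and 10.9% of all genes tested, with a median of 0.052 on the log2 scale. PTPN11, the phosphatase SHP2, rose from 361 ± 3 to 425 ± 12 CPM (log2 fold change 0.24 ± 0.03, SE; edgeR adjusted p = 1.24e-04). CBL, a ubiquitin ligase that binds SHIP2, rose by 0.26 ± 0.05 (edgeR adjusted p = 0.00114) and SH3KBP1, the adaptor CIN85, by 0.21 ± 0.04 (edgeR adjusted p = 0.00301). The gene called lower, named after its value was seen, was DOK3, an adaptor of immune receptors (-0.31 ± 0.09, edgeR adjusted p = 0.0172). Without DMSO replicate 1 the 6 calls became 3, and those over all genes fell from 3835 to 2163. On the other strand RPL6 shares 1.58% of the exonic bases of PTPN11 and MCAM 4.34% of those of CBL.

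Of 6 tested partners of OCRL and INPP5B, 1 was called, against 22.9% of all genes tested. APPL1, an endosomal adaptor, rose from 82.8 ± 1.6 to 94.0 ± 6.0 CPM (0.18 ± 0.05, edgeR adjusted p = 0.00923), a call lost without DMSO replicate 1 or 2 (edgeR adjusted p up to 0.0618). With the GC trend removed its log2 fold change was 0.11 and kept its call (edgeR adjusted p = 0.0193). In that list 3 genes were called under upper-quartile factors or with the GC trend removed, and 2 without GSK-A1 replicate 2. Of 10 tested partners of the synaptojanins, 0 were called by edgeR, DESeq2 or limma-voom, with 3 at an unadjusted p under 0.05 in edgeR. In this list 1 was called without GSK-A1 replicate 2 or 3 and under upper-quartile factors. Of 6 tested ciliary partners of INPP5E, 2 were called higher, against 12.0% of all genes tested. RPGR, a protein of the ciliary transition zone, rose from 10.3 ± 0.4 to 13.7 ± 0.7 CPM (0.41 ± 0.07, SE; edgeR adjusted p = 4.93e-04).

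Over these lists and INPP5J, 17 of 64 distinct genes tested were called, 14 higher and 3 lower, against 22.9% called, 12.0% higher and 10.9% lower over all genes tested, so the share called was near the background. The 17 calls became 8 without any 1 of the DMSO libraries, 11 without GSK-A1 replicate 1 and 12 with DESeq2. Calls over all genes fell in the same fits, from 3835 to 2163, 2213 and 2206 without DMSO replicates 1, 2 and 3. Without GSK-A1 replicate 1 they fell to 2674, and with DESeq2 to 2975.

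**Figure D5:**
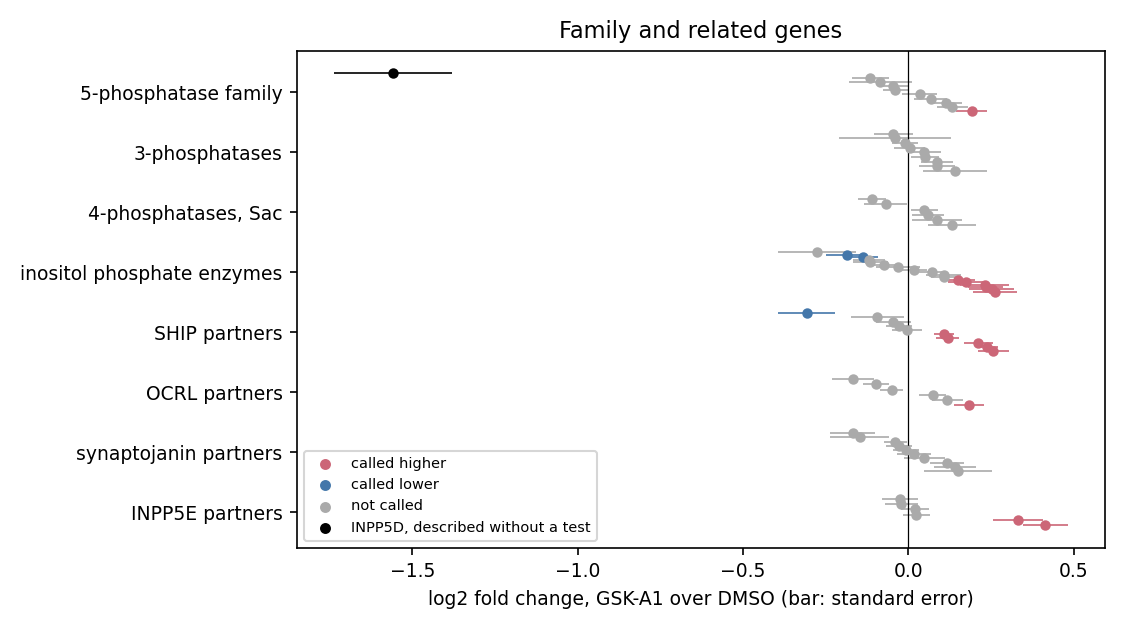
Log2 fold change, GSK-A1 over DMSO, with its standard error for each tested member of the family and of the 7 lists of related genes. Red points were called higher, blue points lower and grey points not called; the black point is INPP5D at -1.56, described without a test. Every other point lies between -0.31 and 0.41.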

How the data were processed

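RNA was sequenced from 6 HEK293 cultures, 3 per group, with groups and replicate numbers from the labels. The deposited table holds raw counts per gene. The submitters' processing notes name cutadapt 5.1, STAR 2.7.11b, featureCounts (Subread 2.1.1), DESeq2 1.38.0 and GRCh38.p13; the annotation release, strand setting and filters are not given in the sources used here.

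Genes kept by filterByExpr (smallest count 10, smallest total 15) were scaled by TMM and tested with the quasi-likelihood test of edgeR 4.0.16 in R 4.3.3, with Benjamini-Hochberg adjustment over all 16754 genes and a threshold of 0.05. Standard errors are the log2 coefficient over the square root of F. CPM use TMM totals. Lengths, GC content, positions and overlaps came from GENCODE release 29. Ratios and sums were compared by exact permutation tests. The code was tested on simulated counts; where each simulated gene kept its own dispersion, unchanged genes made up more of the calls than the threshold allows, so adjusted p-values may be too small. Low counts limit precision, most for INPP5D.

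The members and lists were chosen with earlier results of these data known. Named genes were every member, INPP5J, up to 3 called genes of each list with the smallest p, and the 5 nearest to INPP5D; some of the genes the rule covers are not reported here. Alternatives were other library factors and filters, DESeq2 1.42.0, limma-voom (3.58.1), a replicate block, another gene length and leaving out each library; removal of the GC trend (loess, span 0.3) was added after the data were seen.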

Additional observations from a re-analysis of the deposited data

How the results depend on the processing

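The 1 member called became 2 with RLE factors or with all genes of at least 1 count tested, 3 with the GC trend removed, and 0 (without DMSO replicate 1) to 3 (without GSK-A1 replicate 2) when 1 library was left out. Same-numbered libraries correlated by only 0.011, 0.019 and 0.032 in their deviations from the group means. Each DMSO library correlated best with the GSK-A1 library of its number, while GSK-A1 replicate 1 correlated best with DMSO replicate 2 (0.012). Values this near 0 do not settle whether the replicate numbers pair the libraries. With a replicate block 3 members were called (INPP5F, INPP5K and INPPL1, the last lower), and 4127 genes in all against 3835. Calls in the related lists ranged from 8 to 21 with 1 library left out, and calls over all genes from 2163 to 4890. The log2 fold change of INPP5D ranged from -1.69 to -1.48 over all settings. The sign turned for INPP5B under upper-quartile factors (-0.0061) and for INPP5E without GSK-A1 replicate 2 (its range was -0.172 to 0.0208 with 1 library left out), as did the summed level of the other 9 members, which ranged from -6.16 to 1.47 CPM per kilobase with 1 library left out and was -6.89 under upper-quartile factors and -3.61 with library totals alone, against -2.77. Beyond fewer libraries and other scalings, the cause was not tested. Depth limits INPP5D, with 24 to 116 counts, more than any other member. Under upper-quartile factors 33.3% of all calls were higher, against 52.3% under TMM.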
